A study of Mus musculus with 12 samples.

Results

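The regions described here are the wide accessible regions at gene ends. They were taken from a union set of accessible regions of the mouse genome (GRCm38) as those at least 1000 bp long that came within 1 kb of the start or the end of a RefSeq gene for a protein. Of 188262 regions, 791 (0.420%) met both conditions, and these were 25% of the 3164 wide regions and 3.23% of the 24508 regions at gene ends. Their length and place chose them, and no count entered the rule. The length of a called region can itself depend on the signal, so the choice is not taken to be independent of accessibility. All 791 passed the filter on low counts and were tested.

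The assay was ATAC-seq, which reads open chromatin through the DNA that Tn5 transposase can reach and tag, and 12 libraries came from male mice. Knockout (KO) mice carried the deleted allele and a Cre recombinase that tamoxifen activates, driven from Rosa26 (Phf6-/Y Rosa26+/Cre-ERT2). Wild-type (WT) mice, without Cre, had the floxed allele (Phf6f/Y Rosa26+/+), and per the labels mice of both genotypes had received tamoxifen 8 weeks before. Each genotype gave 3 libraries of multipotent progenitors (MPP) and 3 of long-term haematopoietic stem cells (LT-HSC), the cells that sustain blood formation and give rise to MPP. All KO mice and no WT mice had Cre-ERT2, so its effect and that of Phf6 loss cannot be told apart. Rosa26 is active in most cell types, so the deletion was not limited to blood cells by design. The age of the mice was not given in the sources used here. Separate mice and 20000 sorted cells are stated for LT-HSC only, and p-values measure the spread between libraries, which for MPP may be technical.

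Phf6 encodes a PHD-finger protein of the nucleus that is lost in some T-cell and myeloid leukaemias. A gene's promoter lies at its start, where a stretch free of nucleosomes lets transcription factors and RNA polymerase reach the DNA. Promoters rich in CpG dinucleotides tend to be open in many tissues, while CpG-poor promoters are more often open in particular cell types. A wide accessible region at a start can hold the promoter together with flanking regulatory sequence, and one at a 3′ end marks open chromatin where the gene stops.

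The label "promoter-like" held for part of the regions. By the strand and start sites of the RefSeq promoter table (GRCm38.p6), 490 of the 791 regions lay within 1 kb of a start, and 352 held a start inside them (409 starts of 360 genes). Another 101 lay near a 3′ end only, as for the regions at Hspa1a, Fosb and Mcl1. For 200 the strand of the gene was not in that table. In all, 488 overlapped a gene end and 75 lay near more than 1 gene. Named by 1 gene end each, a start before a 3′ end and then the nearest, they belonged to 773 genes. Of these, 18 had 2 regions each, among them Hlf and Lmo2, which encode transcriptional regulators of blood stem cells.

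Promoters are shown for 7 regions that hold a start and that the results below turn on, as the 250 bases before the RefSeq start, read 5′ to 3′ on the gene's strand. Capitals mark, on either strand, CCAAT (bound by NF-Y), GGGCGG (the GC box bound by Sp1 family factors), TGANTCA (the AP-1 site) and GAAA followed after any 2 bases by GAAA (a core of the interferon-stimulated response element, ISRE), and these matches do not overlap each other except within the GC boxes of Cebpb. The last motif was added after the values were seen. Of all 21263 promoter windows in the table (300 bases, from 250 before to 50 after the start), 38.2% hold CCAAT, 46.2% GGGCGG, 6.99% TGANTCA and 3.35% the ISRE core. Eomes lies at chr9:118477939-118478188 on the plus strand, Gbp5 at chr3:142496684-142496933 (plus) and Gxylt2 at chr6:100704484-100704733 (plus), and these were called for genotype in both populations. Nova1 lies at chr12:46818768-46819017 (minus), Egflam at chr15:7398396-7398645 (minus), Cebpb at chr2:167688665-167688914 (plus) and Lgals3 at chr14:47373610-47373859 (plus), and these differed between MPP and LT-HSC.
Eomes: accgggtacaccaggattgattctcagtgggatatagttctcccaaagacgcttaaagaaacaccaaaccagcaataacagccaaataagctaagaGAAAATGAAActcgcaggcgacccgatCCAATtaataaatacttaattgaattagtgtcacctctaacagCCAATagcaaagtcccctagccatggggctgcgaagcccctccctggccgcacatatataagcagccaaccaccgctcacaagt
Gbp5: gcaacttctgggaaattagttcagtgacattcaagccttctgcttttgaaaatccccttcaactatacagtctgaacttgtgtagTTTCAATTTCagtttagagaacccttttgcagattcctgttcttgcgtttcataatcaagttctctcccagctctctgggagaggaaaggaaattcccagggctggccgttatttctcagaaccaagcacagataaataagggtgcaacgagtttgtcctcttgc
Gxylt2: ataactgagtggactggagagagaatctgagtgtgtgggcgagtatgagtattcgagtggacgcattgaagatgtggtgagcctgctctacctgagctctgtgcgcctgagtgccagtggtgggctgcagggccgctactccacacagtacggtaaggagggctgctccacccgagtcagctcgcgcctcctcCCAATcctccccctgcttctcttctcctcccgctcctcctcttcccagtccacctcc
Nova1: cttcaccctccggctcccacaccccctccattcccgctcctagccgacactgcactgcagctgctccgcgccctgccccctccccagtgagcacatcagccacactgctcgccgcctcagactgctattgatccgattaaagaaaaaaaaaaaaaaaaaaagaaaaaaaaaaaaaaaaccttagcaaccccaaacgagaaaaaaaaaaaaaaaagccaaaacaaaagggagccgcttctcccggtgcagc
Egflam: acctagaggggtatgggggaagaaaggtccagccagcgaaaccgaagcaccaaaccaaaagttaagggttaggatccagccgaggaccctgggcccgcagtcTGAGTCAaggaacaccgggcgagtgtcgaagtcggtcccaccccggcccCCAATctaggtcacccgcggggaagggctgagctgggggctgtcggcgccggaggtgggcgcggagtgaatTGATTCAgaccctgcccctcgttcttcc
Cebpb: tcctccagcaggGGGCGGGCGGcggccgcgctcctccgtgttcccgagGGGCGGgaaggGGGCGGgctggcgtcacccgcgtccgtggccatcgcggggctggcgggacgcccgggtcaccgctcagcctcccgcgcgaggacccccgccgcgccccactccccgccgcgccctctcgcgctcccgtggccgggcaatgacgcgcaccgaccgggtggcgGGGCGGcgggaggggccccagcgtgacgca
Lgals3: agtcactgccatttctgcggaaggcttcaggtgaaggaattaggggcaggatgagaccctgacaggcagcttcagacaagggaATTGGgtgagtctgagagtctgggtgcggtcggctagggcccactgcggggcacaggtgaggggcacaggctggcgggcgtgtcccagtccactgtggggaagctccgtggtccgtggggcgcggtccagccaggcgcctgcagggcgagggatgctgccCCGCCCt
The Cebpb promoter held several GC boxes, the first pair of them overlapping, while those of Eomes, Gbp5, Gxylt2, Nova1 and Egflam held none. The Nova1 promoter held none of the motifs.

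Promoter windows whose start lay in a wide region resembled those in narrow gene-end regions in the CpG observed-over-expected ratio. They held more CpG (median 26 against 21 a window) and differed in the share with some motifs. The 409 windows in wide regions had a median GC content of 68.0% and a median CpG observed-over-expected ratio of 0.792. The 10107 windows in narrow gene-end regions had 61.3% and 0.764, and the 8943 windows that lay in no region had 48.7% and 0.226. The ratio exceeded 0.6 in 73.1% of windows in wide regions, in 72.9% of those in narrow gene-end regions and in 16.9% of those in no region. The ETS core CCGGAAG stood in 7.09% of windows in wide regions against 18.9% in narrow gene-end regions, and CCAAT in 26.7% against 39.9%. GGGCGG stood in 68.7% against 66.4%, TATAAA in 5.13% against 6.63% and TGANTCA in 4.65% against 4.71%. The NRF1 site stood in 0.733% against 2.27%, the CRE site TGACGTCA in 2.69% against 3.44%, and the heat shock element in 0.244% against 0.416%. The ISRE core stood in 4.89% of windows in wide regions and in 3.12% of those in narrow gene-end regions. These are shares of letters, with no test, and several starts of 1 gene can share a window.

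**Figure D1:**
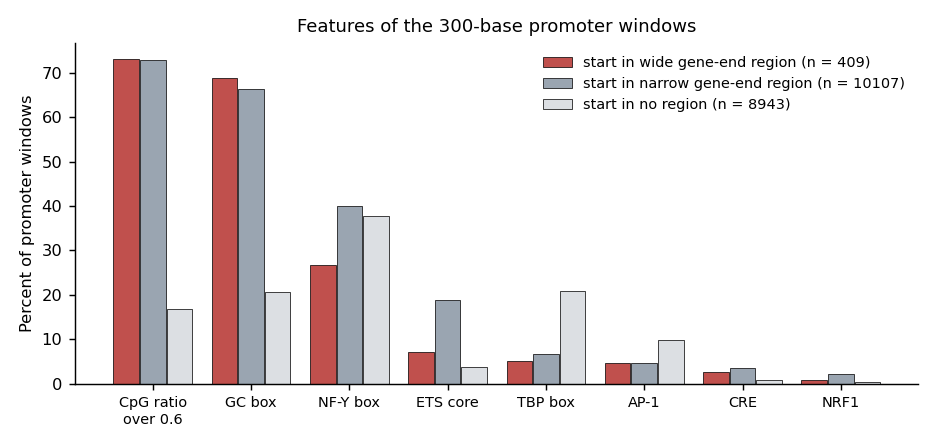
Share of 300-base promoter windows (percent, y axis) with a CpG ratio over 0.6 or with each motif (x axis; NF-Y box is CCAAT, TBP box is TATAAA), for starts in wide gene-end regions, in narrow gene-end regions and in no region. Windows in wide regions match narrow gene-end regions in CpG ratio and GC box and differ in the share with the ETS core (7.09% against 18.9%) and CCAAT (26.7% against 39.9%).

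The wide regions were long but weak for their length. Their median length was 1173 bp (quartiles 1071.5 and 1344, longest 3065), and together they covered 0.984 Mb, 1.05% of all bases in the set. Their median level was 4.79 CPM (counts scaled to library size) per kb of region, with quartiles of 2.98 and 9.57, against a median of 14.03 CPM per kb (4.53 and 49.4) in 23717 narrow gene-end regions. In 672 of the 791 (85.0%) the level per kb was below that median. Wide regions elsewhere (2373) had a median of 2.63 CPM per kb and narrow regions elsewhere (161381) of 3.11. A long interval spreads its counts over more bases, so a level per kb is a mean over the interval and not a peak height.

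The level per kb differed by length and by kind of end. The 445 regions under 1200 bp had a median of 5.47 CPM per kb, the 241 from 1200 bp to under 1500 bp of 4.35 and the 105 of 1500 bp or more of 3.76. Regions near a start had a median of 5.39 CPM per kb, and those near a 3′ end only of 3.05. At the length limit, the regions at Sptlc2, P3h3 and Cacng8 (999, 998 and 998 bp, with 1.37, 18.5 and 4.45 CPM per kb) were just outside and those at Ythdf1, Rem2 and Loxl2 (1000 bp each, with 7.49, 6.47 and 3.48 CPM per kb) just inside.

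The longest regions were at Nfib, a transcription factor (3065 bp, 2.66 CPM per kb), Erbb4, a receptor tyrosine kinase (2276 bp, 3.45), Eomes, a T-box transcription factor (2273 bp, 3.31), Reln, an extracellular matrix protein (2186 bp, 1.75), Shisa7, a receptor-associated protein of neurons (2184 bp, 3.01), and Garem2, an adaptor protein (2175 bp, 3.69). The strongest per length were at Rap2a, a small GTPase (136 CPM per kb), Sec16a, which organises endoplasmic reticulum exit sites (122), Glrx5, of iron-sulphur cluster assembly (113), the shared region of Cep95 and the RNA helicase gene Ddx5 (111), Spata5 (95.4) and Myo9a, an unconventional myosin (85.1).

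**Figure D2:**
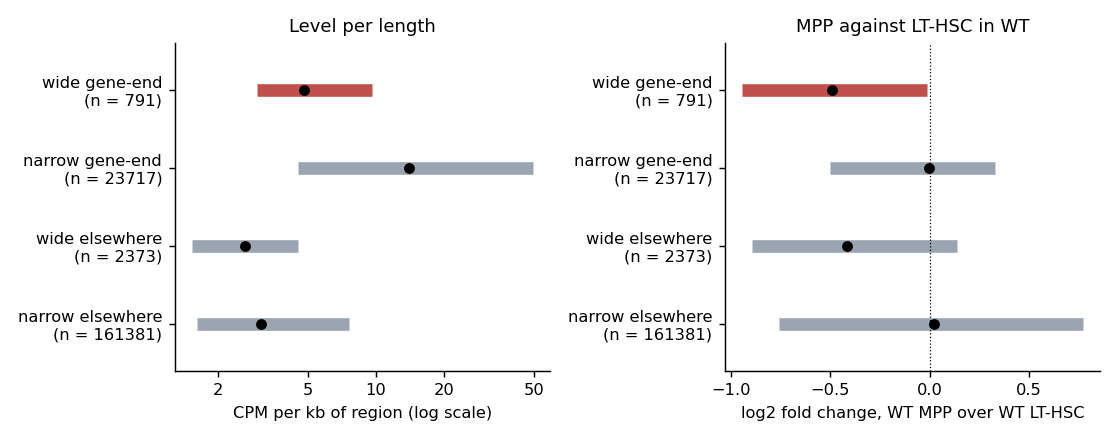
Median (point) and quartiles (bar) for wide gene-end regions and 3 other classes, of the level in CPM per kb (left, log scale) and of the log2 fold change of WT MPP over WT LT-HSC (right). Wide gene-end regions have a median of 4.79 CPM per kb against 14.03 in narrow gene-end regions, and a median log2 fold change of -0.49 between the populations.

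Libraries held 22665988 to 48547234 counts in all, and a wide gene-end region had a median of 122 to 263. The stronger of 2 Phf6 gene-end regions (chrX:52912011-52912448, 438 bp, neither a wide region) had 27.4 ± 1.217 CPM in KO LT-HSC, against 26.5 ± 1.05 in WT LT-HSC, and 28.6 ± 1.02 in KO MPP, against 31.4 ± 0.916 in WT MPP (SD, n = 3 each; edgeR adjusted p = 0.724 and 0.195). The weaker had 1.79 ± 0.391 CPM in KO LT-HSC, against 1.16 ± 0.116 in WT LT-HSC, and 1.55 ± 0.295 in KO MPP, against 1.01 ± 0.143 in WT MPP (adjusted p = 0.0662 and 0.0552). Neither was placed against the deleted exons, so they do not check the deletion. Summed over the gene-end regions of 10 LT-HSC markers, of which Hlf is one of the genes described here, CPM ranged from 192 to 200.5 in KO MPP and from 186 to 188 in WT MPP, against 275 to 286 in KO LT-HSC and 257 to 265 in WT LT-HSC. Over 6 of 7 MPP markers, of which Satb1 is described here, it ranged from 151 to 157 in KO MPP and from 168 to 170 in WT MPP, against 99.2 to 103 in KO LT-HSC and 102 to 107 in WT LT-HSC.

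The 791 regions held a near-constant share of counts across genotypes and a smaller share in MPP. They took 0.862% ± 0.0144 of counts in KO LT-HSC, against 0.860% ± 0.0193 in WT LT-HSC, and 0.788% ± 0.0144 in KO MPP, against 0.764% ± 0.0199 in WT MPP (SD, n = 3 each). The KO and WT libraries overlapped within each population. Every MPP library (0.752% to 0.804%) lay below every LT-HSC library (0.844% to 0.881%). The 101 regions near a 3′ end only took 0.0678%, 0.0716% and 0.0699% of counts in KO LT-HSC, against 0.0610%, 0.0564% and 0.0659% in WT LT-HSC, while taking 0.0603%, 0.0589% and 0.0583% in KO MPP, against 0.0532%, 0.0493% and 0.0532% in WT MPP. For these the KO libraries lay above the WT libraries in both populations, with no overlap, though the median log2 fold change of the 101 regions was 0.09 in LT-HSC and 0.03 in MPP. Without the regions at Hspa1a, Fosb, Mcl1 and H3f3b, left out after their values were seen, the gap was far smaller, with 0.0533% to 0.0558% in KO LT-HSC, against 0.0517% to 0.0530% in WT LT-HSC, and 0.0449% to 0.0461% in KO MPP, against 0.0438% to 0.0448% in WT MPP.

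The comparison of KO with WT asks how loss of Phf6 changed accessibility. In LT-HSC, 35 of the 791 regions were higher in KO and 10 lower (edgeR quasi-likelihood test, adjusted p under 0.05 over all 186373 regions tested), which is 4.42% and 1.26% against 3.27% and 1.47% of all regions (4.74% in either direction). In MPP, 63 were higher in KO and 19 lower, 7.96% and 2.40% against 5.12% and 3.59% of all regions (8.71% in either direction). Of narrow gene-end regions, 8.33% were called higher in KO LT-HSC and 11.5% in KO MPP. Libraries of KO and WT did not overlap in 192 of the 791 regions in LT-HSC (24.3%, against 24.2% of all regions) and in 230 in MPP (29.1%, against 28.0%).

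The middle of the distribution barely differed between genotypes. The median log2 fold change of KO over WT was 0.01 in LT-HSC and 0.03 in MPP, against -0.001 and -0.01 over all regions and 0.06 in narrow gene-end regions of each population. The sign of these medians depended on the scaling. RLE scaling kept both signs (0.014 in LT-HSC and 0.037 in MPP). With total counts as library size only the LT-HSC median turned (-0.046, with 0.003 in MPP), and with a loess offset both medians did (-0.046 and -0.001). The split of calls moved with them, to 22 higher and 20 lower with total counts and 19 and 18 with the loess offset in LT-HSC, and to 48 and 26 and to 47 and 28 in MPP. The share of counts at all gene ends was also higher in every KO LT-HSC library (39.2% to 39.6%) than in every WT LT-HSC library (37.8% to 38.9%). In MPP it was 40.97% to 41.44% in KO, against 39.16% to 41.02% in WT, so that the groups just overlapped. With that share as a covariate 10 regions were higher and 1 lower in LT-HSC and 24 and 8 in MPP. Of the regions described below, that covariate ended the LT-HSC calls of Fosb, Mcl1, H3f3b, Srsf5, Ppm1e, Uox, Gbp5, Mndal, Eomes, Il1rl2, Smad7, Gxylt2, Igfbp2, LOC100504180, Duxf3, Twist2, Ttc22 and Podxl2 (adjusted p from 0.0535 for Il1rl2 to 0.390 for Uox). It ended the MPP calls of Fosb, Ubb, Mndal, Gxylt2, Igfbp2, LOC100504180, Grem1, Tub, Ghsr, Ngb, Fzd10, Bicc1, Gata2 and Hoxb9 (from 0.0603 for Tub to 0.687 for LOC100504180). Total counts and the loess offset each ended the LT-HSC calls of H3f3b, Gbp5, Herc6, Mndal, Eomes and Il1rl2 and the MPP calls of Fosb, Ifi203 and Hoxb9 (0.0503 to 0.169), and the loess offset that of Smad7 in LT-HSC (0.108).

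The calls differed in number by level. Among the 396 regions at or above the median level per kb, 29 were higher and 1 lower in KO LT-HSC, and 53 higher and 5 lower in KO MPP. Among the 395 weaker regions, 6 were higher and 9 lower in KO LT-HSC, and 10 higher and 14 lower in KO MPP. Narrow gene-end regions split alike, with 10.9% higher in KO LT-HSC and 14.8% in KO MPP at or above the same level, against 1.08% and 2.23% below it. The median SE of the log2 fold change in LT-HSC was 0.095 in the stronger and 0.137 in the weaker wide regions. By kind of end, 8 of 101 regions near a 3′ end only were higher in KO LT-HSC (7.92%) and 1 lower, against 22 (4.49%) and 7 of 490 near a start. In KO MPP these counts were 11 (10.9%) and 1 near a 3′ end only and 40 (8.16%) and 13 near a start. Of all regions, 3.27% were higher in KO LT-HSC and 5.12% in KO MPP. Narrow gene-end regions had the opposite order, with 3.69% higher in KO LT-HSC and 3.97% in KO MPP near a 3′ end only. Near a start these shares were 10.2% and 14.3%.

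The largest rises in KO were at Hspa1a and Fosb in both populations, and the chaperone genes Hsp90ab1 and Hspa5 also rose in both. The region near the 3′ end of Hspa1a, which encodes an inducible HSP70 chaperone (chr17:34969977-34971102), had 18.9, 22.2 and 30.5 CPM in KO LT-HSC, against 6.97, 3.15 and 14.7 CPM in WT LT-HSC. In MPP it had 49.1, 48.4 and 58.5 CPM in KO, against 21.8, 7.50 and 27.8 CPM in WT. All KO libraries lay above all WT libraries of their population, with log2 fold changes of 1.52 ± 0.306 in LT-HSC and 1.48 ± 0.273 in MPP (SE; edgeR adjusted p = 0.00349 and 0.000966). Hspa1b is a near-identical copy, and how reads that match both were counted was not given in the sources used here. The region at Hsp90ab1, which encodes HSP90 beta (chr17:45566077-45567671, also within 1 kb of Slc35b2), had 40.0, 34.7 and 35.7 CPM in KO MPP, against 21.2, 14.8 and 25.2 CPM in WT MPP. In LT-HSC it had 27.4, 32.6 and 40.0 CPM in KO, against 13.6, 11.4 and 27.6 CPM in WT, so that the lowest KO library just overlapped the highest WT library. Its log2 fold change was 0.92 ± 0.183 in LT-HSC and 0.86 ± 0.178 in MPP (edgeR adjusted p = 0.00317 and 0.00263). At Hspa5, which encodes the endoplasmic reticulum chaperone BiP (chr2:34777066-34778671, near the 3′ end), log2 fold changes were 0.76 ± 0.145 and 0.74 ± 0.154.

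Ubb, a polyubiquitin gene whose repeated units can share reads, had a region that rose in both populations. The region near the start of Ubb (chr11:62549678-62550681) had 24.4, 25.96 and 23.6 CPM in KO LT-HSC, against 17.5, 15.9 and 16.1 CPM in WT LT-HSC, and 22.3, 21.8 and 22.2 CPM in KO MPP, against 19.8, 16.2 and 15.9 CPM in WT MPP. The log2 fold changes of Ubb were 0.58 ± 0.081 and 0.35 ± 0.080, with no overlap (edgeR adjusted p = 8.08e-05 and 0.00566).

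Fosb, a subunit of the AP-1 transcription factor, Mcl1, which guards blood stem cells from cell death, and H3f3b, which encodes histone H3.3, had regions near their 3′ ends. At Fosb (chr7:19301600-19302613) CPM were 37.1, 37.4 and 38.4 in KO LT-HSC, against 11.8, 3.74 and 29.2 in WT LT-HSC, while they were 34.0, 25.8 and 21.4 in KO MPP, against 19.1, 6.36 and 14.6 in WT MPP. The KO LT-HSC libraries were almost equal while WT LT-HSC libraries spread widely, and the log2 fold changes were 1.34 ± 0.319 and 1.03 ± 0.322 (edgeR adjusted p = 0.0126 and 0.0414). At Mcl1 (chr3:95663269-95664544) CPM were 22.0, 24.3 and 26.1 in KO LT-HSC, against 14.2, 11.4 and 20.3 in WT LT-HSC, while they were 16.9, 14.6 and 17.1 in KO MPP, against 11.02, 6.40 and 9.77 in WT MPP. No KO library of Mcl1 overlapped a WT library, and the log2 fold changes were 0.65 ± 0.140 and 0.85 ± 0.148 (edgeR adjusted p = 0.00602 and 0.000580). H3f3b passed the test in LT-HSC (log2 fold change 0.58 ± 0.164, edgeR adjusted p = 0.0373), with 0.42 ± 0.168 and an adjusted p of 0.115 in MPP, and retrocopies of H3f3b can share its reads.

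In each of these regions except Ubb, WT library 2 was the lowest WT library in both populations, and its part in the result was not tested beyond the following values. Without WT library 2 of both populations, a choice made after seeing the data, the log2 fold changes were 1.13 and 1.08 for Hspa1a in LT-HSC and MPP, 0.68 and 0.66 for Hsp90ab1, 0.60 and 0.63 for Hspa5, 0.56 and 0.30 for Ubb, 0.88 and 0.66 for Fosb and 0.48 and 0.63 for Mcl1, all with edgeR adjusted p under 0.05, while H3f3b had 0.29 in LT-HSC and an adjusted p of 0.0899. Over all 791 regions the counts without that library were 29 higher and 5 lower in LT-HSC and 44 and 14 in MPP. DESeq2 ended the calls of Hspa1a, Hsp90ab1 and Fosb in both populations (adjusted p from 0.0846 for Hsp90ab1 in LT-HSC to 0.330 for Fosb in MPP). It also ended those of Mcl1 (0.0694) and H3f3b in LT-HSC. Single libraries ended Mcl1 in LT-HSC (without WT 2, 0.0509), Fosb in LT-HSC (without KO 2, 0.0510, and without WT 1, 0.0724), Fosb in MPP (without any library but WT 1, 0.0545 to 0.200) and H3f3b in LT-HSC (without any KO library or WT 2, 0.0772 to 0.196). With gene-end share as covariate the adjusted p was 0.136 for Ubb in MPP, 0.101 and 0.148 for Fosb in LT-HSC and MPP, 0.0643 for Mcl1 in LT-HSC and 0.173 for H3f3b in LT-HSC. The calls of Hspa5 in both populations, of Ubb in LT-HSC and of Mcl1 in MPP held in all 16 alternatives run.

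**Figure D3:**
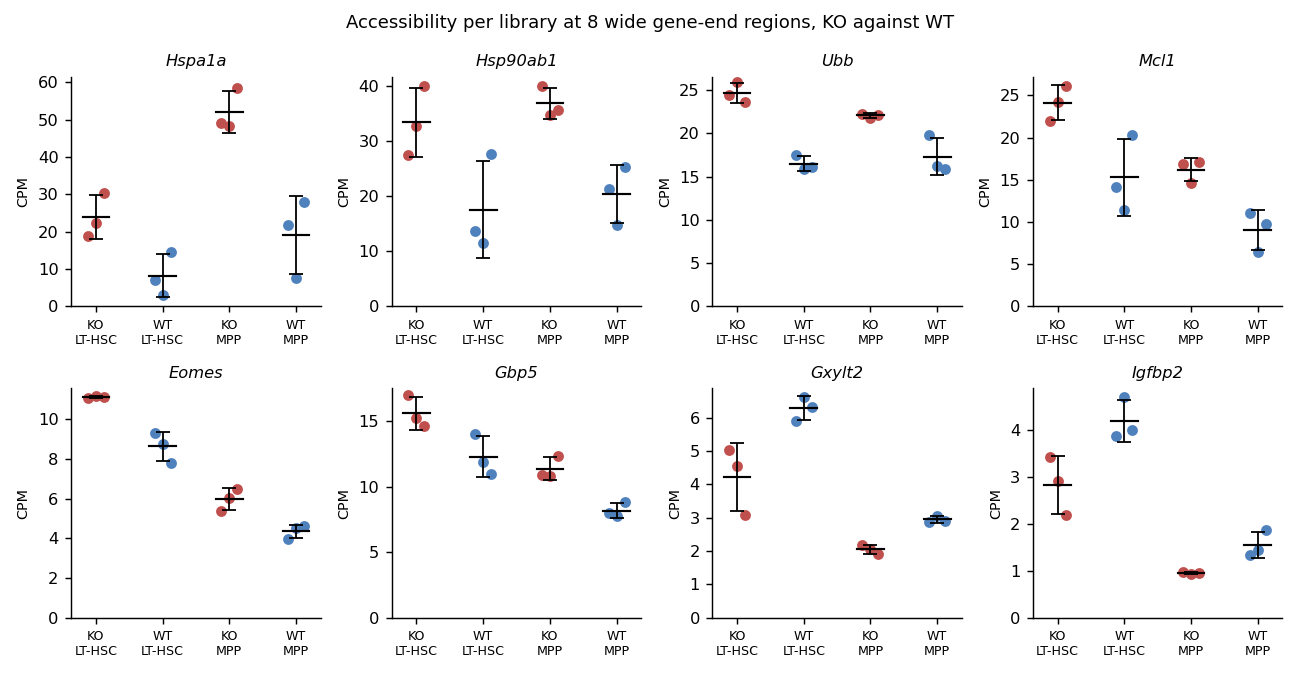
CPM per library (points; KO red, WT blue) with the group mean and SD (black; n = 3) at 8 wide gene-end regions, for KO and WT LT-HSC and KO and WT MPP. Hspa1a, Ubb and Mcl1 lie higher in every KO library, Hsp90ab1 in every KO MPP library, Eomes and Gbp5 higher and Gxylt2 and Igfbp2 lower in every KO library of both populations.

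Prpf39 and Srsf5, which act in RNA splicing, had regions that rose. The region near the start of Prpf39, a U1 small nuclear ribonucleoprotein component (chr12:65036934-65037951), had 7.38, 9.27 and 6.72 CPM in KO LT-HSC, against 5.13, 4.72 and 5.53 CPM in WT LT-HSC, and 6.43, 6.74 and 6.60 CPM in KO MPP, against 4.03, 4.40 and 4.53 CPM in WT MPP. The groups did not overlap, and the log2 fold change was 0.61 in each population (SE 0.117 and 0.118; edgeR adjusted p = 0.00240 and 0.00141), a call that held in all 16 alternatives. The region between Srsf5, a serine- and arginine-rich splicing factor, and Slc10a1 had a log2 fold change of 0.68 ± 0.122 in LT-HSC (adjusted p = 0.00131), and of 0.43 ± 0.144 in MPP, which did not pass (0.0560). With gene-end share as covariate the adjusted p of Srsf5 in LT-HSC was 0.0704.

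Other regions rose in 1 or both populations, and no difference between the populations was called. Ppm1e, which encodes a protein phosphatase, had 4.33, 5.70 and 5.26 CPM in KO MPP, against 2.91, 3.13 and 2.77 CPM in WT MPP, a log2 fold change of 0.80 ± 0.128 with no overlap (edgeR adjusted p = 0.000258). In LT-HSC its log2 fold change was 0.49 ± 0.124 (0.0189), and that call was lost without KO 1, KO 2, WT 1 or WT 3 (0.0552 to 0.0935). The region at the start of Igf2bp3, which encodes an RNA-binding protein of fetal tissues, had 4.09, 4.89 and 6.28 CPM in KO MPP, against 3.11, 3.15 and 3.01 CPM in WT MPP (log2 fold change 0.73 ± 0.142, adjusted p = 0.00155). Its LT-HSC values overlapped, with 2.67, 2.69 and 2.81 CPM in KO and 2.64, 2.70 and 1.997 CPM in WT. Sobp was higher in KO LT-HSC by 0.62 ± 0.104 (0.000689), with 0.34 ± 0.127 in MPP (0.0858), and Tmed10, a vesicle cargo receptor, by 0.47 ± 0.070 in LT-HSC and 0.43 ± 0.070 in MPP (0.000215 and 0.000305). The calls of Ppm1e in MPP, Igf2bp3 in MPP, Sobp in LT-HSC and Tmed10 in both held in all 16 alternatives. Uox was higher in KO LT-HSC by 0.60 ± 0.145 (0.0144), with 0.54 ± 0.196 in MPP (0.0809). Its LT-HSC call was lost without KO 1 (0.109) or KO 3 (0.0656) and with gene-end share as covariate (log2 fold change 0.39, 0.390).

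The regions at Gbp5, Herc6, Ifi203 and Mndal, singled out after their values were seen and not as a counted group, were each higher in KO of both populations. Gbp5, an interferon-induced GTPase, had 17.0, 15.2 and 14.6 CPM in KO LT-HSC, against 14.02, 11.9 and 10.97 CPM in WT LT-HSC, and 10.9, 10.9 and 12.4 CPM in KO MPP, against 7.99, 7.73 and 8.83 CPM in WT MPP. Herc6, which in the mouse attaches the ubiquitin-like ISG15, had 33.2, 34.1 and 31.8 CPM in KO LT-HSC, against 29.2, 24.7 and 28.9 CPM in WT LT-HSC, and 22.8, 24.2 and 24.4 CPM in KO MPP, against 18.4, 17.8 and 19.1 CPM in WT MPP. Neither region had overlapping libraries in either population. Their log2 fold changes in LT-HSC and MPP were 0.35 ± 0.096 and 0.48 ± 0.0997 for Gbp5 and 0.26 ± 0.071 and 0.38 ± 0.073 for Herc6. Those of the HIN-200 family genes Ifi203 and Mndal were 0.47 ± 0.108 and 0.34 ± 0.107, and 0.38 ± 0.104 and 0.37 ± 0.105. The edgeR adjusted p ran from 0.00157 (Herc6 in MPP) to 0.0407 (Ifi203 in MPP). The MPP calls of Gbp5 and Herc6 held in all 16 alternatives. In LT-HSC Gbp5 was lost without KO 1, KO 2, WT 2 or WT 3 (0.0708 to 0.157), Herc6 without KO 1, KO 2 or WT 2 (0.0856 to 0.168), Ifi203 without KO 2 (0.104) and Mndal without KO 1, KO 2, WT 1 or WT 3 (0.0544 to 0.159), and in MPP Ifi203 and Mndal were each lost without KO 2, KO 3, WT 1 or WT 2 (0.0698 to 0.189, and 0.0816 to 0.118). None of the 20 genes of a list of NF-kB and interferon genes had a wide gene-end region.

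The Eomes start, also singled out after its values were seen, was among the longest regions and rose in both populations. It had 11.1, 11.2 and 11.1 CPM in KO LT-HSC, against 9.29, 8.76 and 7.81 CPM in WT LT-HSC, and 5.38, 6.05 and 6.47 CPM in KO MPP, against 3.98, 4.50 and 4.60 CPM in WT MPP. No KO library overlapped a WT library, and the log2 fold changes were 0.37 ± 0.099 and 0.46 ± 0.110 (edgeR adjusted p = 0.0279 and 0.00806). The start of Il1rl2, the IL-36 receptor, had log2 fold changes of 0.39 ± 0.098 and 0.46 ± 0.102 (0.0192 and 0.00468). In LT-HSC Eomes was lost without any library but WT 1 (0.0580 to 0.103) and Il1rl2 without KO 1, KO 2, WT 2 or WT 3 (0.0507 to 0.0897), and in MPP Eomes was lost without KO 3 (0.0651) and Il1rl2 without KO 2 (0.0680).

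The falls in KO were fewer and lay mostly in the weaker regions (9 of 10 in LT-HSC and 14 of 19 in MPP). Near a start lay 7 of the 10 and 13 of the 19, where 490 of all 791 regions lay. Gxylt2, which adds xylose to Notch receptors, had 5.04, 4.56 and 3.07 CPM in KO LT-HSC, against 5.91, 6.63 and 6.31 CPM in WT LT-HSC, and 2.18, 2.05 and 1.91 CPM in KO MPP, against 2.88, 3.06 and 2.91 CPM in WT MPP. Igfbp2, a binding protein of insulin-like growth factors, had 3.41, 2.90 and 2.18 CPM in KO LT-HSC, against 3.87, 4.69 and 3.99 CPM in WT LT-HSC, and 0.974, 0.938 and 0.943 CPM in KO MPP, against 1.33, 1.44 and 1.86 CPM in WT MPP. Both regions were lower in every KO library. The log2 fold changes of Gxylt2 were -0.54 ± 0.134 and -0.54 ± 0.157 (edgeR adjusted p = 0.0154 and 0.0290), and those of Igfbp2 -0.54 ± 0.156 and -0.67 ± 0.206 (0.0416 and 0.0363). In LT-HSC Gxylt2 was lost without KO 3 or WT 2 (0.109 and 0.0589) and Igfbp2 without any library but KO 1 (0.0583 to 0.194), and in MPP Gxylt2 without KO 2, KO 3, WT 1 or WT 2 (0.0575 to 0.126) and Igfbp2 without any library but WT 1 (0.0618 to 0.133).

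In LT-HSC the largest falls were 1.221 ± 0.213 at LOC100504180 and 1.10 ± 0.208 at Duxf3 on the log2 scale (edgeR adjusted p = 0.000958 and 0.00215), neighbouring loci in a repeated gene array on chromosome 10 whose copies can share reads. Duxf3 belongs to the Dux homeobox family. CPM at LOC100504180 were 1.51, 2.23 and 1.74 in KO LT-HSC, against 5.79, 3.54 and 3.36 in WT LT-HSC, with no overlap. With gene-end share as covariate their adjusted p were 0.139 and 0.191. Twist2, a basic helix-loop-helix factor of mesenchyme, Ttc22, Podxl2, a sialomucin, and Btbd1 fell by 0.76 ± 0.178, 0.66 ± 0.164, 0.48 ± 0.129 and 0.28 ± 0.073 on the log2 scale. With gene-end share as covariate the adjusted p of Twist2, Ttc22 and Podxl2 were 0.0888, 0.274 and 0.116. Twist2 was also lost without KO 2 (0.0754), Ttc22 without KO 1, KO 2 or WT 2 (0.0674 to 0.0975), Podxl2 without KO 1, KO 2, WT 1 or WT 2 (0.0671 to 0.186) and Btbd1 without any library but WT 3 (0.0580 to 0.0959).

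In MPP the falls included Grem1, an antagonist of bone morphogenetic proteins, and Fzd10, a Wnt receptor. Grem1 had 0.974, 0.987 and 1.21 CPM in KO MPP, against 1.58, 1.73 and 2.16 CPM in WT MPP, with no overlap (log2 fold change -0.76 ± 0.179, edgeR adjusted p = 0.00762, 0.0559 without KO 2). Tub fell by 0.70 ± 0.199, Ghsr, the ghrelin receptor, by 0.70 ± 0.183, Ngb, a globin of neurons, by 0.65 ± 0.173, Fzd10 by 0.64 ± 0.170 and Bicc1, an RNA-binding protein, by 0.64 ± 0.201. Satb1, a chromatin organiser of lymphoid progenitors, had 20.4, 21.2 and 20.8 CPM in KO MPP, against 26.6, 25.7 and 23.7 CPM in WT MPP (log2 fold change -0.29 ± 0.076, adjusted p = 0.0156). Leaving out single libraries ended the calls of Tub (without KO 2, KO 3, WT 1 or WT 3, 0.0597 to 0.168), Ghsr (KO 1, KO 3 or WT 3, 0.0595 to 0.0704), Ngb (KO 1, KO 3, WT 1 or WT 2, 0.0517 to 0.119), Fzd10 (KO 3 or WT 2, 0.0957 and 0.0699), Bicc1 (any but KO 1, 0.0533 to 0.181) and Satb1 (KO 2, KO 3, WT 1 or WT 2, 0.0510 to 0.0739). The summed CPM of the gene-end regions of 4 of 7 erythroid and megakaryocyte markers were 81.5 to 87.3 in KO MPP, against 70.7 to 75.3 in WT MPP, and 121 to 134 in KO LT-HSC, against 117 to 122 in WT LT-HSC, none of them at a wide gene-end region. The part of these shifts, and of those at LT-HSC and MPP markers, in the genotype results was not tested, and in bulk samples fewer cells of a type and less accessibility per cell cannot be told apart.

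The calls of the populations overlapped. Of the 45 regions called in LT-HSC and the 82 called in MPP, 25 were called in both, 55.6% of the LT-HSC and 30.5% of the MPP calls. Over all regions tested 3614 were called in both, 40.9% of the LT-HSC and 22.3% of the MPP calls, and whether the shares differ was not tested. Of these 25, 21 were higher in KO in both populations, 4 lower in both and none opposite. Across the 791 regions the log2 fold changes in the 2 populations had a Pearson correlation of 0.684 and a Spearman correlation of 0.579, against a Pearson correlation of 0.442 over all 186373 regions. The points share genotype groups, and whether the LT-HSC and MPP libraries share animals was not given in the sources used here. The interaction of genotype and population was called in none of the 791 regions by edgeR, against 0.00805% of all regions called higher and 0.0% lower, and in none by DESeq2. At an unadjusted p under 0.05 in edgeR there were 42 of the 791, a smaller share than over all regions (14082 of 186373, 7.56%). The lowest p were at Camkk2 (-0.62 ± 0.204 on the log2 scale, edgeR adjusted p = 0.486), Wdr86 (0.40 ± 0.140, 0.517) and Atp2b3 (0.58 ± 0.212, 0.533). With a median SE of 0.166 on the log2 scale in these regions, small differences between the populations were not detectable.

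**Figure D4:**
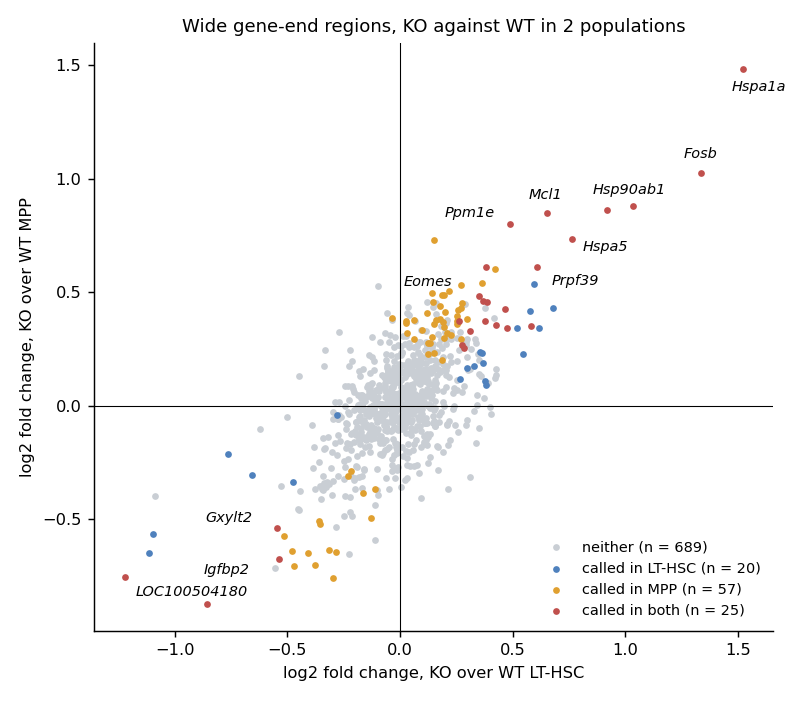
Log2 fold change of KO over WT in MPP (y axis) against that in LT-HSC (x axis) for the 791 wide gene-end regions, coloured by the populations in which each was called. The 25 regions called in both populations lie in the upper right (21) and lower left (4), with Hspa1a the highest in both.

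Between the populations the wide regions moved mostly one way. In WT, 124 of the 791 regions were higher in MPP than in LT-HSC and 494 lower (edgeR, adjusted p under 0.05), 15.7% and 62.5% against 34.6% and 35.2% of all regions (69.8% in either direction). The median log2 fold change of MPP over LT-HSC was -0.49, against 0.01 over all regions, -0.003 in narrow gene-end regions and -0.41 in wide regions elsewhere. Libraries of WT MPP and WT LT-HSC did not overlap in 616 regions (77.9%, against 70.4% of all regions). With gene-end share as covariate 64 were higher and 377 lower, with a median of -0.46. That share also separates WT MPP from WT LT-HSC, and the median SE rose from 0.115 to 0.208.

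The shift toward lower accessibility in MPP was larger in longer and weaker regions. The median log2 fold change was -0.45 under 1200 bp, -0.52 from 1200 bp to under 1500 bp and -0.61 at 1500 bp or more. It was -0.21 in the 396 stronger and -0.71 in the 395 weaker regions. Narrow gene-end regions below the median level per kb of the wide ones (6200) also had a negative median of -0.35, with 24.1% higher and 44.4% lower, while those at or above it (17517) had 0.04. Regions with a start inside and a CpG ratio of at most 0.6 (90) had a median of -0.78, with 4 higher and 71 lower. Those with a ratio over 0.6 (262) had -0.44, with 53 higher and 149 lower. Regions near a start had -0.47 and regions near a 3′ end only -0.42. Since level per kb was computed over all 12 libraries, LT-HSC and MPP counts enter both sides of the split by level.

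The largest falls in MPP were at Egflam and Pak7. Of regions near a start 62.2% were lower in WT MPP, against 62.5% of all 791. Egflam, which encodes the matrix protein pikachurin (chr15:7397806-7399150), had 0.276, 0.354 and 0.338 CPM in WT MPP, against 3.38, 3.74 and 3.18 CPM in WT LT-HSC. In KO it had 0.351, 0.222 and 0.216 CPM in MPP, against 2.72, 2.33 and 2.004 CPM in LT-HSC. The log2 fold change in WT was -3.40 ± 0.218 (edgeR adjusted p = 6.18e-15), with no overlap. The MPP values of Egflam lay near the floor of the set. The lowest count of any of the 791 regions was 11, 12 and 7 in the WT MPP libraries. The protein kinase gene Pak7 fell by 3.33 ± 0.221 on the log2 scale, Snurf, an imprinted gene, by 3.02 ± 0.184, the collagen gene Col11a1 by 2.82 ± 0.174, Ndp, which encodes the Wnt-pathway ligand norrin, by 2.80 ± 0.238, and Anapc1, of the anaphase-promoting complex, by 2.57 ± 0.218. Nova1, which encodes a splicing factor of neurons (chr12:46818087-46819743), had 3.88, 4.23 and 4.26 CPM in WT MPP, against 16.5, 16.6 and 13.9 CPM in WT LT-HSC, and 3.86, 3.95 and 3.80 CPM in KO MPP, against 17.3, 17.9 and 17.2 CPM in KO LT-HSC. Its WT log2 fold change of -1.93 ± 0.097 (edgeR adjusted p = 1.59e-17) came from a region well above the depth limit, with libraries far apart. Of the longest regions, those at Erbb4, Eomes and Reln fell by 1.69 ± 0.113, 0.99 ± 0.106 and 0.96 ± 0.135 on the log2 scale. Nova1, Erbb4, Eomes and Reln were described after their values were seen in this comparison.

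Hoxb2, Hlf, Lmo2 and Kit, which are active in blood stem cells, were among those that fell. Hoxb2, a homeobox gene (chr11:96351333-96352389), had 1.55, 1.5 and 1.79 CPM in WT MPP, against 11.8, 10.4 and 9.84 CPM in WT LT-HSC (log2 fold change -2.74 ± 0.133, edgeR adjusted p = 6.49e-18). Hlf, a transcription factor that marks LT-HSC, had 2 regions, and the one past its 3′ end (chr11:90334420-90335736) had 2.23, 2.83 and 2.47 CPM in WT MPP, against 11.6, 10.9 and 9.41 CPM in WT LT-HSC. The other, near its start (chr11:90389466-90390485), had 7.64, 6.25 and 8.18 CPM, against 10.7, 10.3 and 11.7 CPM. Libraries were apart in both regions, yet the log2 fold changes differed in size, -2.07 ± 0.141 past the 3′ end and -0.58 ± 0.106 near the start. With gene-end share as covariate the start region of Hlf had an adjusted p of 0.0785. Both regions of Lmo2, a cofactor of blood stem cell transcription factors, fell as well, by 0.75 ± 0.142 and 0.59 ± 0.085. The region past the 3′ end of Kit, the stem cell factor receptor, fell by 1.05 ± 0.150. Of the 2 regions of Lipg, an endothelial lipase, the one 526 bp from a gene end fell by 2.22 ± 0.175 and the one that overlaps a gene end by 0.59 ± 0.118. Hlf, Lmo2, Kit and the second Lipg region were singled out after their values were seen.

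The 124 regions higher in MPP were led by those at Camkk2, Slc16a5 and Jpt2. Camkk2, a kinase upstream of AMPK, had near its 3′ end (chr5:122718410-122719642) 8.19, 9.71 and 7.81 CPM in WT MPP, against 2.01, 2.05 and 1.65 CPM in WT LT-HSC, a log2 fold change of 2.18 ± 0.137 (edgeR adjusted p = 4.08e-15). Cebpb, a transcription factor of myeloid cells (chr2:167688097-167689186), had 29.3, 24.8 and 23.9 CPM in WT MPP, against 10.3, 12.7 and 12.8 CPM in WT LT-HSC, and 23.2, 22.9 and 24.5 CPM in KO MPP, against 10.4, 10.3 and 11.1 CPM in KO LT-HSC. Lgals3, which encodes galectin-3 (chr14:47373656-47374785), had 17.8, 20.2 and 15.1 CPM in WT MPP, against 8.28, 7.22 and 8.39 CPM in WT LT-HSC. In each of these 3 regions every MPP library exceeded every LT-HSC library, and the WT log2 fold changes were 1.12 ± 0.087 for Cebpb and 1.16 ± 0.097 for Lgals3. The monocarboxylate transporter gene Slc16a5 (1.94 ± 0.249), Jpt2 (1.64 ± 0.271), the desaturase gene Scd4 (1.61 ± 0.161), Tctex1d4 (1.49 ± 0.092), Ankrd28 (1.45 ± 0.176), the myeloid receptor gene Cd300lb (1.40 ± 0.135) and Spn, which encodes CD43 (1.32 ± 0.153), were also higher. Jpt2 had an adjusted p of 0.108 with gene-end share as covariate. Cebpb and Lgals3 were singled out after their values were seen. Beside these, the summed CPM of the gene-end regions of 7 myeloid markers, none of them a wide region, were 81.3 to 92.0 in KO MPP and 78.4 to 92.0 in WT MPP, against 37.8 to 40.7 in KO LT-HSC and 37.8 to 39.0 in WT LT-HSC, and their part in the result was not tested.

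**Figure D5:**
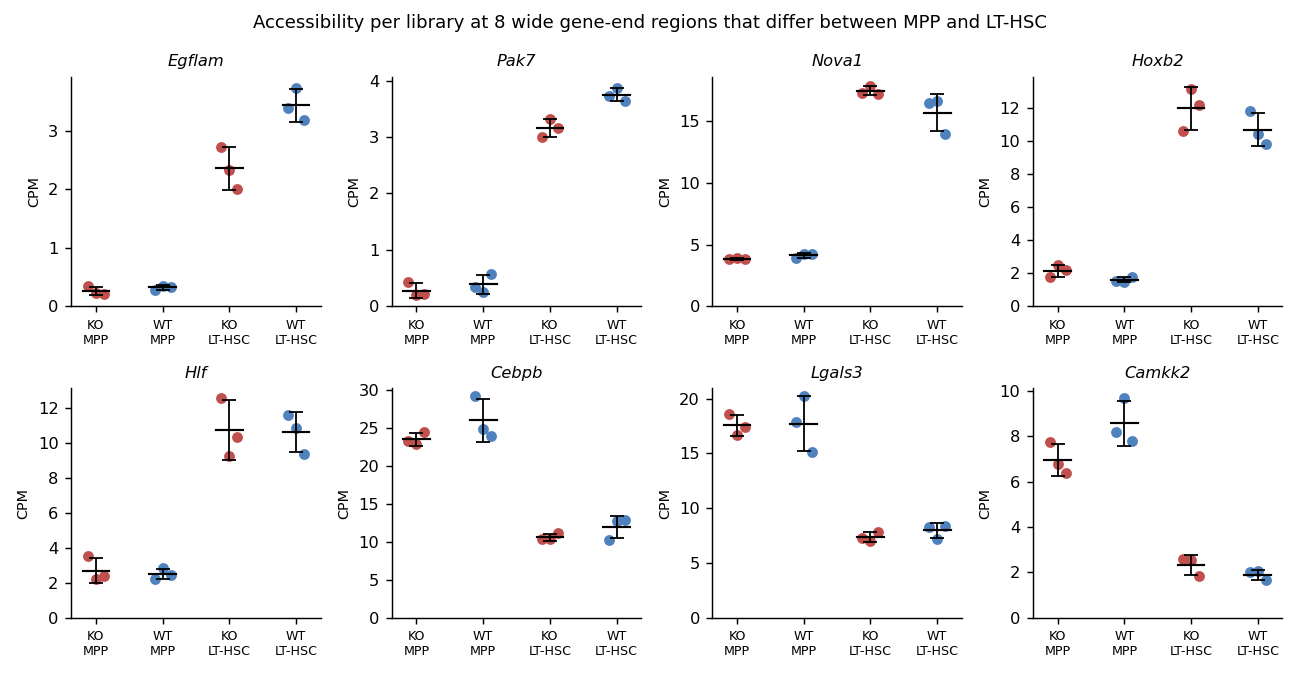
CPM per library (points; KO red, WT blue) with the group mean and SD (black; n = 3) at 8 wide gene-end regions, for KO and WT MPP and KO and WT LT-HSC. Egflam, Pak7, Nova1, Hoxb2 and the 3′ region of Hlf are lower, and Cebpb, Lgals3 and Camkk2 higher, in every MPP library of either genotype than in every LT-HSC library.

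Few genes of the 13 lists examined had a wide gene-end region, 24 of 243 genes. Among 21 transcription factors of blood stem cells, 6 genes had 8 such regions (Etv6, Gata2, Gfi1, Ikzf1, and 2 each at Hlf and Lmo2). None was called for genotype in LT-HSC, and 1, at the start of Gata2, was higher in KO MPP, with 24.2, 23.5 and 23.9 CPM in KO, against 19.7, 21.0 and 17.5 CPM in WT (log2 fold change 0.29 ± 0.075, edgeR adjusted p = 0.0125, 0.0648 without WT 3 and 0.184 with gene-end share as covariate). Between WT MPP and WT LT-HSC, 5 of the 8 were lower and 1, past the 3′ end of Gfi1, higher (0.997 ± 0.116). Of all 791 regions 62.5% were lower and 15.7% higher in this comparison. Of 25 Hox and related homeobox genes, Hoxa11, Hoxa13, Hoxb2 and Hoxb9 had 1 region each, 3 of them lower in MPP than in LT-HSC, and Hoxb9 was higher in KO MPP by 0.37 ± 0.121 (adjusted p = 0.0493, lost without any single library, 0.0520 to 0.261).

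Both chaperone genes with a wide region, Hspa1a and Hsp90ab1 of 16 listed, were higher in KO in both populations, as was the 1 immediate early gene of 22, Fosb. Of 20 signalling genes, Kit and Smad7 had a region, and that of Smad7, an inhibitor of TGF-beta signalling, rose in KO LT-HSC by 0.27 ± 0.061 (adjusted p = 0.0103, 0.0837 without KO 1 and 0.08239 without WT 1). Among 25 chromatin regulators, Eed, of the Polycomb complex PRC2, had a region that was not called for genotype and was higher in WT MPP than in WT LT-HSC, by 0.85 ± 0.064. Of 16 lymphoid genes, Bcl11a, Satb1 and Tcf7 had a region, of which Satb1 was lower in KO MPP. Cdk6 of 21 cell cycle genes, Cebpb of 12 myeloid genes and Vwf of 12 erythroid and megakaryocyte genes had a region that was not called for genotype, H3f3b was the 1 gene of 15 histone genes with a region, and none of 19 genes of ribosomes and translation had one. With 1 to 8 regions a list, these counts describe the regions named and not the lists.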

How the data were processed

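The authors deposited raw read counts for the 12 libraries over a shared set of accessible regions, without scaling. Per the submitters' processing notes the tools were cutadapt and Bowtie2, MACS2 2.1.1, featureCounts and DESeq2 1.22.1 with GRCm38, and their settings were not given in the sources used here. Libraries were grouped by genotype and population from the labels.

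Gene ends came from RefSeq (21887 protein-coding genes, of which 17492 had a start and strand in the promoter table). Of 188262 regions, 1889 did not pass filterByExpr and 186373 were tested. Counts were scaled by TMM and fitted with edgeR 4.0.16's quasi-likelihood test (R 4.3.3) over all 12 libraries with 1 mean per group, with Benjamini-Hochberg adjustment over all regions tested and a threshold of 0.05. The contrasts were KO against WT in each population, their interaction, and MPP against LT-HSC in WT. CPM are counts scaled to the TMM-adjusted library size, errors of log2 fold changes are standard errors from the fit, and the biological coefficient of variation was 8.18%. On simulated counts of 186373 regions the fit called 136 of 200 planted 2-fold changes and 10 unchanged regions. With 3 libraries a group, no exact permutation p for 1 region can go below 0.1.

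Each region was named by a gene end within 1 kb. A start was taken before an end of unknown strand, and that before a 3′ end. Among ends of the same kind the nearest was taken. The text names the 6 longest and the 6 strongest per kb, the 8 higher and 8 lower regions with the largest change among those called without overlap in each comparison, the 3 lowest p of the interaction, up to 4 called regions per list, and the regions at the length limit. Symbols of predicted models (Gm with digits, Rik) were skipped in naming. Other genes were added after their values were seen. Some regions that the rule names are not reported here. The wide gene-end regions and the gene lists were chosen with earlier results of these data known.

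Alternatives were RLE scaling, total counts, a loess offset (limma 3.58.1), no filter, at least 1 CPM in 3 libraries, DESeq2 1.42.0, a replicate block, the share of counts at gene ends as a covariate, the compared groups alone, a threshold of 0.01, a length of 1500 bp, overlap with a gene end, and leaving out each library.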

Additional observations from a re-analysis of the deposited data

How the results depend on the processing

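Of the summary values under alternatives, 193 stayed within the set limits and 51 moved. For single named regions 1526 values kept their status, which for some was not called. Another 299 lost a call, 4 gained one and 1 changed sign: Rap2a between WT MPP and WT LT-HSC, at -0.042 with the loess offset (edgeR adjusted p = 0.313). The cause of these moves was not tested.

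In KO against WT LT-HSC, higher calls numbered 13 at a threshold of 0.01, 22 with total counts, 19 with the loess offset, 10 with the covariate of gene-end share, 5 at 1500 bp or more and 20 overlapping a gene end. Lower calls numbered 3, 20, 18, 1, 2 and 6 under these, 18 with at least 1 CPM in 3 libraries and 5 without WT replicate 2 of both populations (29 higher), which was chosen after seeing the data. The median log2 fold change was -0.0458 with total counts and -0.0463 with the loess offset. In MPP, higher calls numbered 25 at 0.01, 24 with the covariate, 7 at 1500 bp and 34 overlapping a gene end, and lower calls 3, 8 and 2 under the first 3. For MPP against LT-HSC, higher calls numbered 64 with the covariate, 6 at 1500 bp and 78 overlapping, lower calls 76 at 1500 bp and 307 overlapping, and the median was -0.44 with the loess offset and -0.61 at 1500 bp. The share of counts was 0.118% in KO LT-HSC, 0.117% in WT LT-HSC, 0.0963% in KO MPP and 0.0926% in WT MPP at 1500 bp, and 0.566%, 0.572%, 0.523% and 0.517% in the same order for overlapping regions.

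Leaving out each library gave 17 to 28 higher and 3 to 10 lower calls in LT-HSC (fewest higher without KO 2, then 20 without KO 1 and 23 without WT 1) with medians of -0.02 to 0.04, 28 to 59 higher and 3 to 15 lower in MPP (28 without KO 3, 30 without KO 2 and 38 without WT 2) with medians of 0.02 to 0.04, and 110 to 131 higher and 471 to 491 lower between populations with medians of -0.49 to -0.46. The interaction stayed at 0 calls.

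With a replicate block the calls were 43 higher and 14 lower in LT-HSC, 76 higher and 24 lower in MPP, none for the interaction, and 130 and 498 between populations (135 and 507 with the block within genotype). Deviations of same-numbered libraries of 1 genotype correlated at 0.05 to 0.11 and across genotypes at -0.04 to 0.03, so not every pair passed 0.1 and the numbers were not taken to pair the libraries. Each LT-HSC library nevertheless correlated best with the MPP library of its own number within its genotype (others -0.08 to -0.01), which is a hint from the data and not the design.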
